A study of Homo sapiens with 97 samples.

Results

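The transcripts of collagens, laminins and their basement membrane partners were followed in HEK293T cells, a human embryonic kidney line, by APEX-seq. The members were chosen by gene name: collagen alpha chains, laminin alpha, beta and gamma chains, and AGRN, HSPG2, NID1, NID2, FBN1, FBN2, FN1 and SPARC. A mean of at least 0.5 CPM, counts per 1000000 counts of a library, over the 18 unlabelled libraries of the table of 9 constructs was also required. Of 60675 gene identifiers, 63 carried such a name and 47 passed the level, of which 22 encode basement membrane proteins, 8 fibril-forming collagens, 5 fibril-associated collagens, 3 membrane-spanning collagens, 5 other collagens and 4 other matrix proteins. The lowest members were LAMA2, at 0.60 CPM, and LAMB3, at 0.74 CPM. The highest genes left out were COL21A1, at 0.347 CPM, and COL17A1, at 0.337 CPM. The level that chose the members came from the unlabelled libraries, which are also the control arm of most comparisons below.

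Collagens are trimers of chains built on repeated Gly-X-Y triplets. Laminins are trimers of 1 alpha, 1 beta and 1 gamma chain that form, with type IV collagen, nidogens, agrin and perlecan (HSPG2), the sheet called the basement membrane. All of these proteins are made by ribosomes bound to the endoplasmic reticulum (ER), enter its lumen or membrane during synthesis, are folded there and leave in transport carriers coated by COPII. Their mRNAs therefore belong to the secretory class that is held at the ER by the growing protein.

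In APEX-seq a peroxidase, APEX2, is fused to a protein or signal that places it at one site in the living cell. With biotin-phenol and a brief pulse of hydrogen peroxide it attaches biotin to nearby RNA, which is then captured and sequenced. Cells stably expressing 1 of 9 constructs were used: NLS (nucleus), NIK (nucleolus), LMA (nuclear lamina), NucPore (nuclear pore), NES (cytosol), ERM (the cytosolic face of the ER membrane), KDEL (the ER lumen), OMM (the cytosolic face of the outer mitochondrial membrane) and MITO (the mitochondrial matrix). Labelled libraries received peroxide. Unlabelled controls carried the same construct and received no peroxide. OMM and NES cells were also treated with cycloheximide, which stops ribosomes on their mRNA, puromycin, which releases the growing chains, or CCCP, which uncouples mitochondria, each with its own unlabelled controls. In a further table OMM and NES cells were labelled after nocodazole, which takes apart microtubules, for 3, 6, 9 or 30 min or 2 h, with unlabelled controls at 3 and 30 min. MITO cells were sequenced from polyadenylated and from total RNA, and a nuclear and a cytosolic fraction were sequenced without labelling. Each group had 2 libraries, which the labels call biological replicates, and whether these came from separate cultures was not given. The p-values of the fits therefore measure the spread between replicate libraries, pooled over all groups fitted together.

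The 8-codon stretches of highest hydropathy near the start of the coding sequence are shown because they lie where a secretory signal is read as the protein emerges from the ribosome. The first 150 coding bases (GENCODE 29, GRCh38, spliced) are printed 5′ to 3′ with that stretch in capitals. They come from LAMC1 (chr1:183023460-183145592, + strand), NID1 (chr1:235975830-236065162, - strand), FBN2 (chr5:128257909-128659185, - strand) and COL4A2 (chr13:110305812-110513209, + strand), the members called at ERM, from COL18A1 (chr21:45405137-45513720, + strand), and from COL25A1 (chr4:108808725-109302752, - strand), a membrane-spanning collagen. The coordinates are those of the whole genes.
LAMC1: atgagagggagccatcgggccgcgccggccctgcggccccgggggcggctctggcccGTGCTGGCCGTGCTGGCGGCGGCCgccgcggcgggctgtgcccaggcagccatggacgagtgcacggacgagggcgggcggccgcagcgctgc
NID1: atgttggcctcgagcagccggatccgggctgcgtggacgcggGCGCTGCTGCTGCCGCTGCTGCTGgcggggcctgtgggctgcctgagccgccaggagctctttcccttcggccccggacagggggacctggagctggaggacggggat
FBN2: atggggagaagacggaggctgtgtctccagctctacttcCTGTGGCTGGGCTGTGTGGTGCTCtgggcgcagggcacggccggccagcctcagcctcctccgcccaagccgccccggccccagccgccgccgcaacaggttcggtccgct
COL4A2: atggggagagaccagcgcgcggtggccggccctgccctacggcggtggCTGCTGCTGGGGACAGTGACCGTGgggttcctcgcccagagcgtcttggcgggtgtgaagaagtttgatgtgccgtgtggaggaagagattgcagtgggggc
COL18A1: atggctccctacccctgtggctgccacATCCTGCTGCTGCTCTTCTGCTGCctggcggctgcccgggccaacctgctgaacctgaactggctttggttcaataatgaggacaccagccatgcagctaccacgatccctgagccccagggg
COL25A1: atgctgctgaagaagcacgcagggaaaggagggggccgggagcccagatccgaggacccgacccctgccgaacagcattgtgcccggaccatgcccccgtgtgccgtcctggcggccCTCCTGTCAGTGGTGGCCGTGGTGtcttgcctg

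The stretch lay at codons 20 to 27 in LAMC1, 15 to 22 in NID1, 14 to 21 in FBN2, 17 to 24 in COL4A2 and 10 to 17 in COL18A1, and further in, at codons 40 to 47, in COL25A1. By a fixed rule, a window of 19 codons with a mean Kyte-Doolittle hydropathy of at least 1.6 that starts by codon 30, such a segment was found in 23 of the 47 members. Of the genes shown, NID1 and FBN2 had no such segment, although their capitals mark a stretch. No match says only that the rule was not met. The members' messages are long: the median coding length was 5055 bases, from 909 in SPARC to 13173 in HSPG2, beside 1398 bases over the 14813 protein-coding genes tested. Runs of at least 10 Gly-X-Y triplets took up 82.5% of the codons of COL9A3, 72.6% of COL2A1 and 66.1% of COL4A2. COL4A1 and COL4A2 lie head to head on opposite strands of chromosome 13, and their annotated ends overlap by 1422 bases; how strand was used in counting was not given, so the division of reads in that overlap is uncertain.

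The libraries held 2835969 to 76714068 counts each. Of the kidney line's own transcripts, LIN28B was at 61.2 to 169 CPM and NEFM at 42.0 to 119 CPM in the 18 unlabelled libraries, whereas PAX2 reached at most 3.02 CPM and was at 0 in 5 of them. The summed level of 4 fibroblast markers was 0 to 6.28 CPM, with THY1 at 0 in all 18 libraries. That of 3 endothelial markers was 0 to 1.29 CPM, and that of 3 blood markers 0 to 5.73 CPM. Among replicate pairs the correlation of log2 CPM over well-expressed genes ran from 0.565 to 0.992. In 17 of 96 libraries more than 2% of the well-expressed genes of their table (those averaging 5 CPM or more) had no count at all. These include 1 labelled ERM library (5.02%), 1 unlabelled OMM (4.06%) and 1 unlabelled NES (3.37%) library, both labelled NIK libraries (6.06% and 2.94%), both unlabelled OMM libraries with cycloheximide (3.08% and 7.75%), all 4 unlabelled OMM libraries of the nocodazole table (2.98% to 16.3%), and 1 labelled OMM library at 2 h (4.58%). A fold against a group whose libraries were both at 0 is given below only as a lower bound, from a floor of 3 counts over the 2 libraries of that group together. Such a bound concerns that group alone, and other unlabelled groups of the table can hold the gene.

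The unlabelled levels, which chose the members and are given as a description, were dominated by laminin and nidogen messages. LAMC1, the gamma chain shared by most laminins, averaged 301 CPM, and NID1, which links laminin to type IV collagen, 239 CPM. FBN2, a microfibril protein, followed at 142 CPM, COL6A1 at 119 CPM, COL18A1, the source of endostatin, at 102 CPM and LAMB2 at 101 CPM. Per kilobase of exon the order changed: NID1 stood at 40.8 CPM per kb, LAMC1 at 38.2, COL6A1 at 28.1, LAMB2 at 17.5, COL18A1 at 14.9, COL2A1 at 14.2, FBN2 at 11.9, LAMB1 at 11.6, AGRN at 10.2, COL4A2 at 6.72 and COL4A1 at 5.56. The laminin alpha chains were lower, with LAMA5 at 3.96 and LAMA1 at 2.24 CPM per kb. Exon length took in all annotated exons of a gene, 12.97 kb for COL4A2, whose transcript used for the coding sequence has 6494 bases. The order per kilobase therefore depends on the annotation. Of the 47 members, 44 averaged at least 1 CPM and 31 at least 5 CPM.

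At the ER membrane, peroxide raised LAMC1, FBN2, COL4A2 and NID1, while the other 43 members did not pass the test, edgeR's quasi-likelihood test at an adjusted p under 0.05 over all 22680 genes of the table. The 4 of 47 called higher compare with 5.26% of all genes, and none was lower. In ERM cells LAMC1 stood at 910 and 939 CPM with peroxide and at 295 and 294 CPM without. NID1 stood at 424 and 499 CPM with peroxide and at 241 and 226 CPM without. FBN2 stood at 266 and 333 CPM with peroxide and at 117 CPM in both controls. The labelled libraries lay above both controls for each of these genes. COL4A2, a chain of the network-forming type IV collagen, was at 177 and 132 CPM against 52.1 and 58.1 CPM, again with no overlap.

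The log2 fold change at ERM was 1.65 ± 0.23 (SE) for LAMC1 (adjusted p = 2.18e-06), 1.36 ± 0.28 for FBN2 (adjusted p = 0.000634), 1.49 ± 0.32 for COL4A2 (adjusted p = 0.000815) and 0.98 ± 0.22 for NID1 (adjusted p = 0.00123). AGRN, a heparan sulphate proteoglycan, was at 121 CPM in both labelled libraries and at 41.5 and 67.1 CPM in the controls, a log2 difference of 1.16 ± 0.42 that did not pass (adjusted p = 0.067). COL2A1, the fibrillar collagen of cartilage, was at 63.2 and 56.6 CPM against 61.2 and 86.2 CPM, and these ranges overlapped. By role, 3 of 22 basement membrane genes were called and their median log2 fold change was 0.72. None of 8 fibril-forming collagens was called, 3 were above 0 and their median was -0.68. That median rests partly on low levels: COL5A2, COL3A1, COL11A2 and COL24A1, each averaging under 5 CPM, had no count in ERM labelled 1, which lacks counts. COL5A1 was at 41.9 and 47.9 CPM against 18.4 and 16.6 CPM, without overlap. The median over all 47 members was 0.48, beside 0.00 for all genes tested, and 33 of 47 were above 0. At an unadjusted p under 0.05, 11 members passed, and DESeq2 called 10. Fitted on its own 4 libraries the comparison gave 7 calls.

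The outer mitochondrial membrane gave more calls than the ER membrane construct: 12 of 47 members were higher with peroxide and none lower, beside 3% of all genes called higher. Side by side, the unlabelled OMM libraries held NID1 at 291 and 259 CPM and the labelled ones at 853 and 960 CPM. For LAMC1 the values were 448 and 283 CPM without and 1049 and 1039 CPM with peroxide. COL18A1 was at 39.1 and 92.1 CPM without and 233 and 272 CPM with peroxide. All 3 messages were higher in both labelled libraries than in either control. AGRN was at 178 CPM in both labelled libraries and at 41 and 35.9 CPM in the controls, and LAMA5, the alpha chain of the laminins of many adult epithelia, at 110 and 103 CPM against 29.3 and 23.1 CPM. These groups did not overlap either.

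By role, 8 of 22 basement membrane genes rose at OMM, with a median log2 fold change of 1.35. They were NID1 (1.72 ± 0.22, adjusted p = 2.12e-06), LAMC1 (1.51 ± 0.23, adjusted p = 3.39e-05), COL18A1 (1.95 ± 0.35, adjusted p = 0.000346), LAMA5 (2.03 ± 0.38, adjusted p = 0.000616), COL4A2 (1.65 ± 0.32, adjusted p = 0.000681), AGRN (2.21 ± 0.43, adjusted p = 0.00087), LAMB1 (1.22 ± 0.35, adjusted p = 0.0346) and COL4A1 (1.42 ± 0.43, adjusted p = 0.0494). COL6A1 and COL6A2, chains of the microfibrillar type VI collagen, rose by log2 1.24 ± 0.28 and 1.78 ± 0.44. COL2A1 was the only fibril-forming collagen of 8 called (1.47 ± 0.38, adjusted p = 0.0141), and FN1, fibronectin, rose by log2 1.67 ± 0.47 (adjusted p = 0.0288). FBN2 was at 374 and 394 CPM against 202 and 215 CPM and did not pass (adjusted p = 0.0625). The median over members was 1.29 beside 0.06 for all genes, and 42 of 47 were above 0. The count was lower without either labelled replicate. It was also lower without libraries that lack counts, OMM unlabelled 2 among them, where LAMB1 was at log2 0.996 and COL2A1 at 1.35. Fitted on the comparison's own 4 libraries the count was 19. Of the 4 genes called at ERM, 3 (LAMC1, NID1 and COL4A2) were called at OMM, which is 75% of the ERM calls and 25% of the OMM calls.

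**Figure D1:**
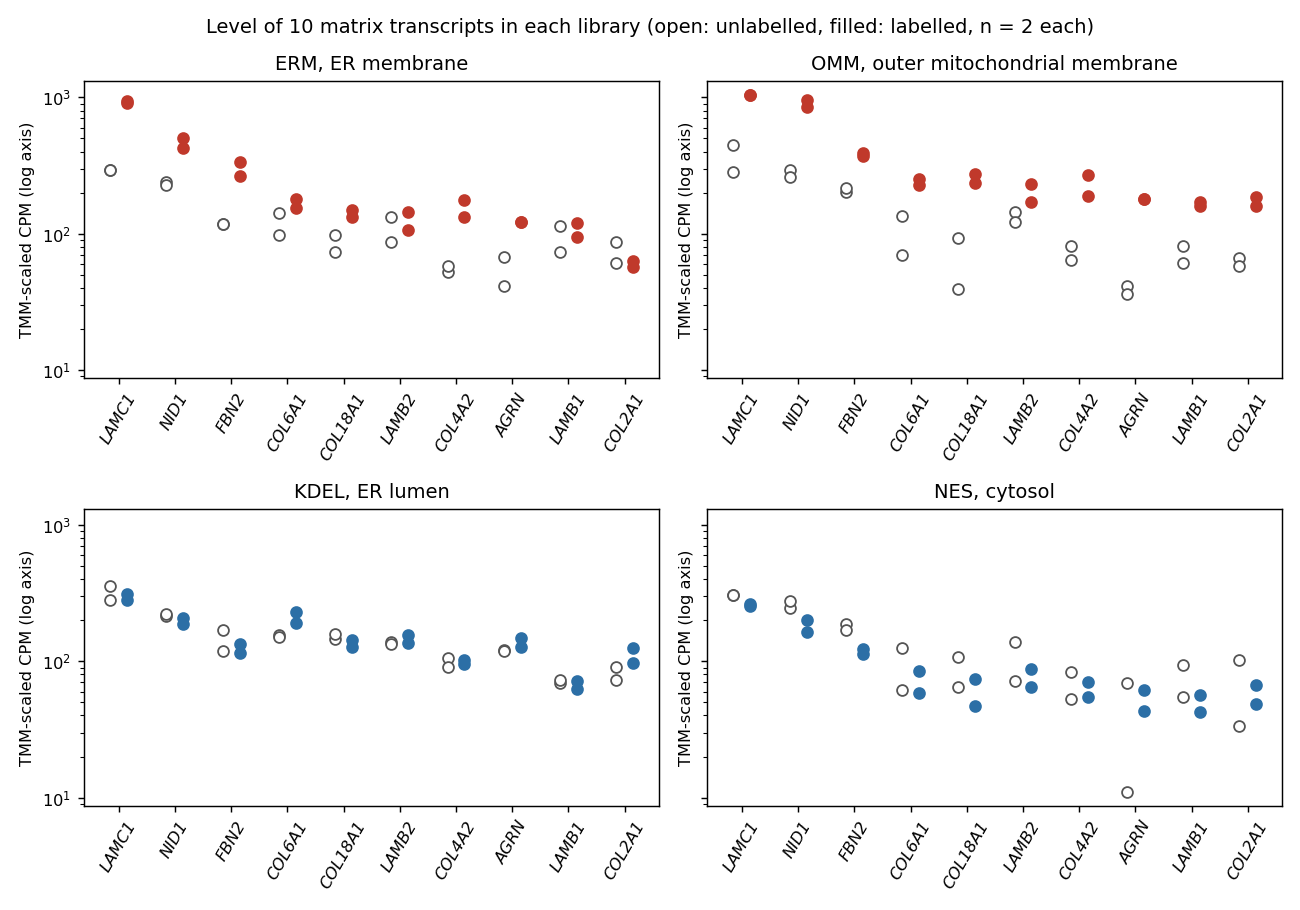
Level in CPM (log axis) of the 10 members with the highest unlabelled mean, in the ERM, OMM, KDEL and NES libraries; open points are unlabelled and filled points labelled libraries, 2 of each. LAMC1 stands at 910 and 939 CPM with peroxide in ERM cells and at 1049 and 1039 CPM in OMM cells, and at 283 and 311 CPM in KDEL and 265 and 253 CPM in NES cells.

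In the ER lumen and the cytosol no member was called. KDEL gave LAMC1 at 283 and 311 CPM with peroxide against 359 and 282 CPM without, and NID1 at 187 and 208 CPM against 216 and 222 CPM. The LAMC1 ranges overlapped, and both labelled values of NID1 lay below the controls. The members' median log2 fold change at KDEL was 0.03, beside 0.04 over all genes, 1 member had an unadjusted p under 0.05, DESeq2 called 0, and edgeR called 0% of all genes in either direction. In NES cells LAMC1 was at 265 and 253 CPM with peroxide against 309 CPM in both controls, and FBN2 at 124 and 112 CPM against 187 and 168 CPM. The labelled values were the lower ones, but neither gene passed (adjusted p = 0.723 and 0.371). The NES median was -0.23 beside 0.18 over all genes, 17 of 47 members were above 0, 3 had an unadjusted p under 0.05, and DESeq2 called 0, with 23 of its adjusted p-values not given; 3.88% of all genes were called in either direction. Without unlabelled NES replicate 2, 2 members were called.

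The differences between constructs were tested as differences of their labelling contrasts. ERM exceeded NES for 5 of 47 members (2.15% of all genes): LAMC1 by log2 1.9 ± 0.32 (adjusted p = 0.000252), NID1 by 1.51 ± 0.30 (adjusted p = 0.00191), FBN2 by 1.95 ± 0.40 (adjusted p = 0.002), COL4A2 by 1.62 ± 0.44 (adjusted p = 0.028) and COL4A1 by 2.13 ± 0.61 (adjusted p = 0.0379). OMM exceeded NES for 8 members (1.58% of all genes), led by NID1 at 2.25 ± 0.31 (adjusted p = 2e-05), LAMC1 at 1.77 ± 0.32 (adjusted p = 0.0011) and COL18A1 at 2.46 ± 0.49 (adjusted p = 0.00267), with COL6A1, COL4A2, COL4A1, FBN2 and LAMA5 behind them. The medians were 0.78 and 1.75, beside -0.45 and 0.00 over all genes. None of the members was lower. These contrasts share the NES libraries. The count for ERM against NES was 3 without any 1 of ERM unlabelled 1 or 2 or NES labelled 1 or 2, and that for OMM against NES was 5 and 2 without NES labelled 1 and 2, 4 and 3 without OMM labelled 1 and 2, and 4 without OMM unlabelled 2.

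ERM labelling also exceeded KDEL labelling for 4 members (2.73% of all genes), LAMC1 (1.76 ± 0.32, adjusted p = 0.000294), FBN2 (1.57 ± 0.39, adjusted p = 0.00853), NID1 (1.14 ± 0.30, adjusted p = 0.0148) and COL4A2 (1.48 ± 0.44, adjusted p = 0.0322). These are the genes called at ERM itself, and both contrasts use the same ERM libraries. KDEL on its own called 0% of all genes, so whether the faces of the ER differ cannot be read from this contrast. The count for ERM against KDEL was 2 without ERM unlabelled 2 or KDEL unlabelled 2 and 1 without KDEL labelled 1 or KDEL unlabelled 1. Between ERM and OMM no member passed, although 8 had an unadjusted p under 0.05 and DESeq2 called 4 (edgeR called 1.78% of all genes in either direction). The smallest p belonged to COL2A1, lower at ERM by log2 1.77 ± 0.53 (a difference of -1.77, adjusted p = 0.0899), and LAMA5 followed at -1.65 ± 0.53 (adjusted p = 0.123). LAMC1 differed by 0.14 ± 0.32. Leaving out ERM labelled 2 or OMM unlabelled 2 gave 1 call. In the authors' deposited table of log2 enrichment the members' median was 0.563 for ERM, 1.26 for OMM, 0.0184 for KDEL and -0.328 for NES.

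In the mitochondrial matrix no member was called from polyadenylated RNA (8 had an unadjusted p under 0.05, DESeq2 called 3, and edgeR called 1.05% of all genes in either direction). FBN2 stood at 115 and 305 CPM with peroxide and at 101 and 120 CPM without, so its ranges overlapped. LAMB2 stood at 143 and 202 CPM against 99 and 84.4 CPM, without overlap (adjusted p = 0.181). The labelled libraries disagreed with each other: the summed level of the 47 members was 1664 and 2814 CPM with peroxide, and 1552 and 1595 CPM without. Without labelled replicate 1, 3 members were called. From total RNA, HSPG2, perlecan, was the 1 member of 41 tested that rose (0.617% of all genes), from 4.45 and 4.49 CPM to 23.2 and 47.6 CPM, without overlap. Its log2 fold change was 3.00 ± 0.58 (adjusted p = 0.0367), and the count was 0 without labelled replicate 1, unlabelled replicate 1 or unlabelled replicate 2 and 4 without labelled replicate 2. Unlabelled total and polyadenylated RNA differed for no member (3 had an unadjusted p under 0.05, DESeq2 called 0, and edgeR called 1.96% of all genes in either direction).

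Few members moved at the nuclear constructs. At NLS 3 of 47 rose (2.78% of all genes). LAMB2, the beta chain of laminins at the glomerulus and the neuromuscular junction, was at 84 and 87.5 CPM with peroxide and at 35.5 and 48.4 CPM without. COL27A1, a fibril-forming collagen of cartilage, was at 48.1 and 57.4 CPM against 6.61 and 12.6 CPM. Neither gene's groups overlapped, and the log2 fold changes were 1.03 ± 0.29 (adjusted p = 0.0276) and 2.46 ± 0.50 (adjusted p = 0.00181). COL11A2 was at 9.042 and 11.05 CPM with peroxide, while the controls of the other constructs held 0 to 10.55 CPM. In the NLS libraries it had 228 and 290 counts with peroxide and 0 in both controls, at least 278-fold higher (adjusted p = 0.0238). LAMC1, in contrast, was at 190 and 193 CPM against 198 CPM in both controls. The NLS count was 1 without labelled 2 or unlabelled 2 and 0 without unlabelled 1, and with the controls of all 9 constructs the LAMB2 value turned to -0.089 (adjusted p = 0.876).

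At the lamina 3 members rose (3.67% of all genes). COL27A1 was at 58 and 74.5 CPM against 19.9 and 18.6 CPM (log2 1.78 ± 0.49, adjusted p = 0.0183). COL4A5, a type IV chain of the kidney, was at 52.1 and 66.3 CPM against 20.5 and 29.1 CPM (1.26 ± 0.35, adjusted p = 0.0194). COL4A4 was at 6.69 and 4.77 CPM with peroxide, while the controls of the other constructs held 0 to 6.79 CPM. In the LMA libraries it had 197 and 166 counts against 0 in both controls, at least 110-fold higher (adjusted p = 0.0453). In each case the labelled libraries were the higher ones, yet no call was left without LMA labelled 1, labelled 2 or unlabelled 1. At the nucleolus SPARC, a collagen-binding matrix protein, was the 1 member that fell (3.96% of all genes were lower): it had 0 counts in both labelled libraries and 446 and 137 in the controls, at least 222-fold lower (adjusted p = 2.26e-06). Both labelled NIK libraries also lack counts for other well-expressed genes, and 12 members had a NIK group at 0; the part of that shortfall in the SPARC value was not tested. The NIK count was 3 without labelled 1 and 6 without labelled 2. At the nuclear pore none was called, 2 had an unadjusted p under 0.05, DESeq2 called 0, and edgeR called 0% of all genes.

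**Figure D2:**
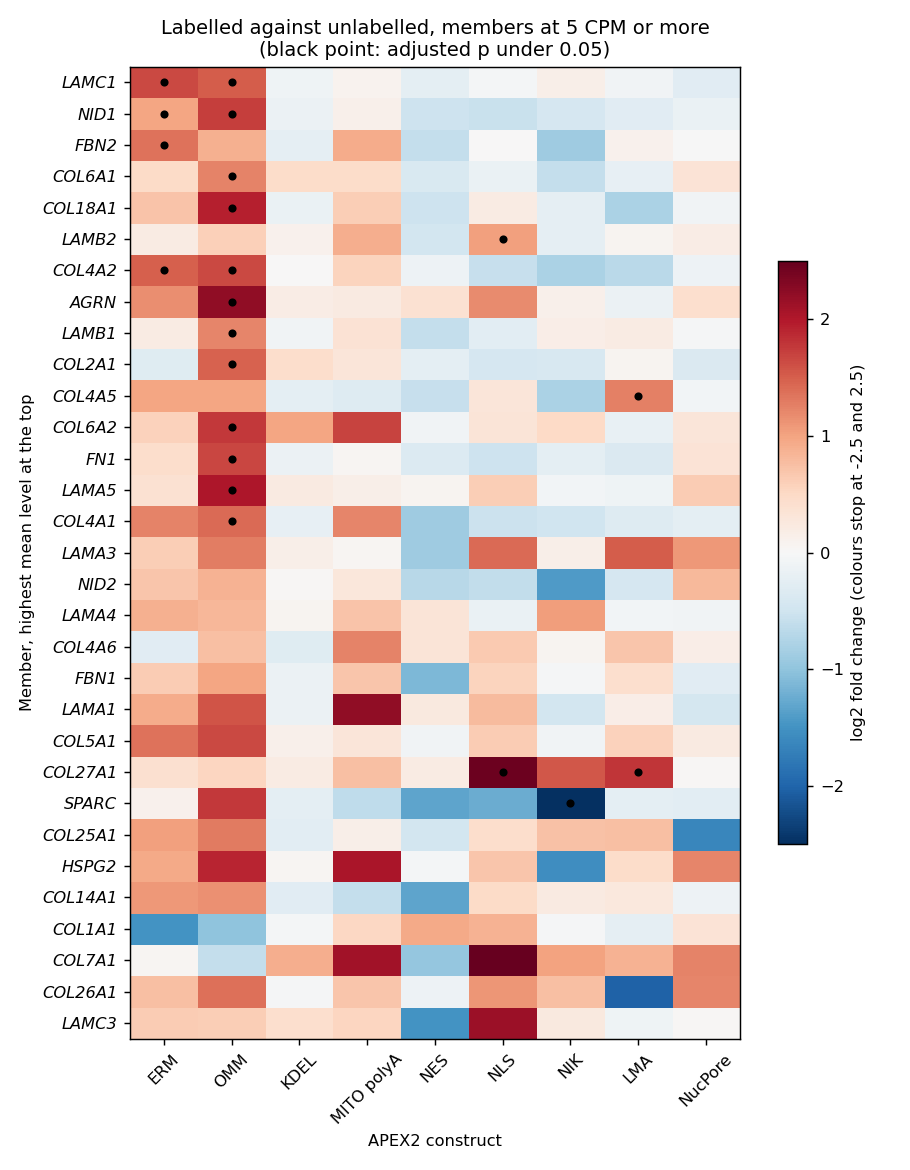
Log2 fold change, labelled against unlabelled, of the 31 members at 5 CPM or more (rows) at the 9 constructs (columns), with colours limited at 2.5 in either direction; a black point marks a call at an adjusted p under 0.05. Among all 47 members, 12 calls fall at OMM and 4 at ERM, and none at KDEL or NES.

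The proteins that fold and export collagen in the ER are themselves made at the ER, and 20 of their genes were read from the same fits. At ERM 7 rose and 1 fell, with a median log2 fold change of 0.74. MIA3 (TANGO1), the receptor that loads procollagen into carriers, rose by log2 1.5 ± 0.24 (adjusted p = 2.22e-05), and PPIB, a prolyl isomerase, fell by 0.77 ± 0.20 (adjusted p = 0.00802). At OMM 10 rose and none fell, with a median of 1.15. P4HB, the beta subunit of prolyl 4-hydroxylase, rose there by 1.42 ± 0.16 (adjusted p = 2.6e-07), and SERPINH1, the collagen chaperone HSP47, by 1.72 ± 0.25. Of 24 matrix receptors 5 rose at each of ERM and OMM, among them DAG1, dystroglycan, by 1.70 ± 0.25 at ERM and 1.89 ± 0.25 at OMM. Of 18 matrix processing genes 1 rose and 2 fell at ERM (median 0.59), and 1 rose and none fell at OMM (median 1.62). Genes for cytosolic partners gave these counts: of 13 COPII coat genes 1 rose and 1 fell at ERM and none passed at OMM, where their median was -0.42. Of 14 cytosolic adhesion genes, VCL, vinculin, rose at both constructs (1.72 ± 0.22 and 1.38 ± 0.22), while ZYX and ILK fell at ERM. Over all 22680 genes 1193 rose and 1724 fell at ERM, and 681 rose and 450 fell at OMM. Whether the lists differ was not tested.

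With cycloheximide, 23 of 47 members rose at OMM and none fell, beside 12.4% of all 21441 genes of the drug table called higher. LAMC1 stood at 1197 and 1116 CPM with peroxide and at 225 and 269 CPM without. NID1 stood at 1313 and 1306 CPM with peroxide and at 260 and 395 CPM without. The labelled libraries were far above the controls for both, with log2 fold changes of 2.23 ± 0.19 (adjusted p = 1.1e-07) and 2.00 ± 0.27 (adjusted p = 2.48e-05). COL2A1 stood at 209 and 198 CPM against 56.9 and 56.8 CPM (1.84 ± 0.27, adjusted p = 5.86e-05), and FBN2 at 467 and 422 CPM against 177 and 134 CPM (1.51 ± 0.23, adjusted p = 0.000106). By role, 14 of 22 basement membrane genes and 3 of 8 fibril-forming collagens were called. The median over members was 1.58, beside 0.40 over all genes. Among the 23 calls COL12A1, COL3A1, COL4A4 and COL4A3 had 0 counts in both controls, the libraries that lack counts, and 11 members had a group at 0. COL4A4 had 418 and 409 counts with peroxide, at least 289-fold higher. Its labelled levels were 11.99 and 14.82 CPM, and other unlabelled groups with a drug held it at 0 to 10.02 CPM. Without labelled replicate 1 the count was 15, and fitted on the 4 libraries of the comparison alone it was 2: LAMC1 (adjusted p = 0.0223) and COL2A1 (adjusted p = 0.0432) kept their calls, while NID1 (adjusted p = 0.0512), FBN2 (adjusted p = 0.0725) and COL18A1 (adjusted p = 0.0806) lost theirs.

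With puromycin 6 members rose at OMM (0.942% of all genes). LAMA5 was at 128 and 131 CPM against 39.5 and 48.5 CPM (log2 1.56 ± 0.28, adjusted p = 0.00369). LAMC1 was at 399 and 389 CPM against 197 and 206 CPM (0.97 ± 0.19, adjusted p = 0.00701), and COL18A1 at 195 and 202 CPM against 76.9 and 66.7 CPM (1.47 ± 0.29, adjusted p = 0.008). All labelled values lay above the controls. COL2A1, NID1 and COL5A1 also rose. The median was 0.74, beside 0.08 over all genes, and 36 of 47 were above 0. The count fell to 1 without labelled 1, labelled 2 or unlabelled 2 and to 0 without unlabelled 1. It rose to 10 with DESeq2 or without the filter on low counts, and to 20 when fitted on the comparison's own 4 libraries, where cycloheximide gave 2, so that the order of the counts in these drugs turned.

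With CCCP 12 members rose at OMM (3.27% of all genes), and LAMA5 led them. It was at 193 and 125 CPM with peroxide and at 19.2 and 21.5 CPM without, a log2 fold change of 2.97 ± 0.29 (adjusted p = 2.92e-06). The other unlabelled libraries with a drug held LAMA5 at 35.4 to 59.5 CPM, above both of these controls. In the NES cells with CCCP it was at 54.8 and 43.9 CPM with and 45.2 and 58.2 CPM without peroxide, and those ranges overlapped. LAMC1 (1.20 ± 0.19, adjusted p = 0.000379), LAMB2 (1.55 ± 0.27, adjusted p = 0.000965), FBN2 (1.20 ± 0.23, adjusted p = 0.00251), FN1 (1.78 ± 0.35, adjusted p = 0.00295) and NID1 (1.34 ± 0.27, adjusted p = 0.00313) followed. COL4A3 rose from 0 counts in both controls to 90 and 48, at least 41-fold. Its labelled levels were 2.23 and 1.17 CPM, and other unlabelled groups with a drug held it at 0 to 2.5 CPM. The median was 1.20, beside 0.14 over all genes, and the count was 6 without labelled replicate 1 and 20 with DESeq2 or without the filter on low counts.

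In the cytosol the same drugs gave other values. With cycloheximide 5 members fell and 2 rose at NES, beside 7.77% and 7.91% of all genes. LAMB2 was at 41.8 and 27.3 CPM with peroxide and at 121 and 90.6 CPM without (log2 -1.62 ± 0.27, adjusted p = 0.000261). COL2A1 was at 44.6 and 25.5 CPM against 94.1 and 63.6 CPM (-1.17 ± 0.27, adjusted p = 0.00405). COL6A1, COL18A1 and AGRN fell as well, by 1.10 ± 0.26, 1.22 ± 0.29 and 1.00 ± 0.30, and the labelled libraries were the lower ones for all 5. LAMC1 was at 311 and 201 CPM against 266 and 232 CPM, with overlap. The 2 that rose, COL12A1 and COL3A1, had 0 counts in both controls. The count was 2 without NES cycloheximide labelled 2, and fitted on the 4 libraries of the comparison alone it was 0, with LAMB2 at an adjusted p of 0.0631.

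With puromycin 2 members rose at NES (3.24% of all genes), COL6A1 from 68 and 64.3 to 131 and 136 CPM (1.01 ± 0.25, adjusted p = 0.0167) and LAMC1 from 219 and 179 to 314 and 334 CPM (0.70 ± 0.19, adjusted p = 0.0222), each without overlap. No call was left without labelled 1, labelled 2 or unlabelled 2. With CCCP the 1 member called at NES (3.28% of all genes were higher) was COL3A1, with 36 and 108 counts against 0, at least 54.5-fold higher. Its labelled levels were 0.978 and 2.41 CPM, and other unlabelled groups with a drug held it at 0 to 5.52 CPM. The call was lost when labelled 1, labelled 2 or unlabelled 2 was left out.

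Set against NES in the same drug, OMM labelling was stronger for 17 of 47 members with cycloheximide (9.38% of all genes). COL2A1 differed by log2 3.01 ± 0.38 (adjusted p = 1.65e-05), COL18A1 by 2.90 ± 0.41 (adjusted p = 5.96e-05), LAMB2 by 2.87 ± 0.38 (adjusted p = 2.94e-05) and LAMC1 by 2.19 ± 0.26 (adjusted p = 1.06e-05). With puromycin no member passed: 9 had an unadjusted p under 0.05, DESeq2 called 3, and edgeR called 0.112% of all genes in either direction. LAMC1 differed there by 0.26 ± 0.26 (adjusted p = 0.998) and COL18A1 by 1.49 ± 0.40 (adjusted p = 0.221). With CCCP LAMA5 alone passed (3.03 ± 0.39, adjusted p = 0.00645), 1 of 2 genes called in the whole table (0.00933%), while 18 members had an unadjusted p under 0.05 and DESeq2 called 4. Both OMM controls of LAMA5 in CCCP, at 19.2 and 21.5 CPM, lay below all other unlabelled libraries with a drug. The CCCP count was 0 without NES CCCP labelled 1, labelled 2 or unlabelled 2 or OMM CCCP labelled 1 or unlabelled 2, and 2 without OMM CCCP unlabelled 1. Fitted on their own libraries the 3 contrasts gave 6, 1 and 0 calls. The members' medians were 1.95, 0.30 and 1.07 in cycloheximide, puromycin and CCCP, beside 0.27, -0.06 and 0.06 over all genes, and the CCCP median was 1.01 with genes at 0 set to their bound.

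The direct contrast of the OMM libraries in cycloheximide and in puromycin called 2 members higher in cycloheximide (4.53% of all genes). LAMC1 differed by log2 1.26 ± 0.26 (adjusted p = 0.0054), with labelled levels of 1197 and 1116 CPM in cycloheximide and 399 and 389 CPM in puromycin, which did not overlap. The other call, COL12A1, rests on a group with 0 counts. NID1 differed by 0.90 ± 0.37 and did not pass (adjusted p = 0.174). The median was 0.85, beside 0.37 over all genes, and 41 of 47 were above 0. The count was 10 without OMM cycloheximide unlabelled 1, 5 without unlabelled 2, and 1 without puromycin labelled 1, labelled 2 or unlabelled 2.

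The folding and export genes gave these counts in the drug table: 16 of 20 rose at OMM in cycloheximide, none in puromycin and 3 in CCCP. In cycloheximide P4HB rose by log2 1.89 ± 0.16 (adjusted p = 5.98e-08), and it exceeded its puromycin value by 1.76 ± 0.22 (adjusted p = 3.09e-05), 1 of 10 genes of that list called in this contrast. At NES in cycloheximide 7 of the 20 fell, among them PPIB by 2.14 ± 0.17 and P4HB by 0.81. Of 18 matrix processing genes 3 rose at OMM in cycloheximide, none in puromycin and 1 in CCCP. Of 13 COPII genes 2 rose and 4 fell at OMM in cycloheximide, and of 24 receptors 10 rose. Over all 21441 genes 2652 rose and 1148 fell there.

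**Figure D3:**
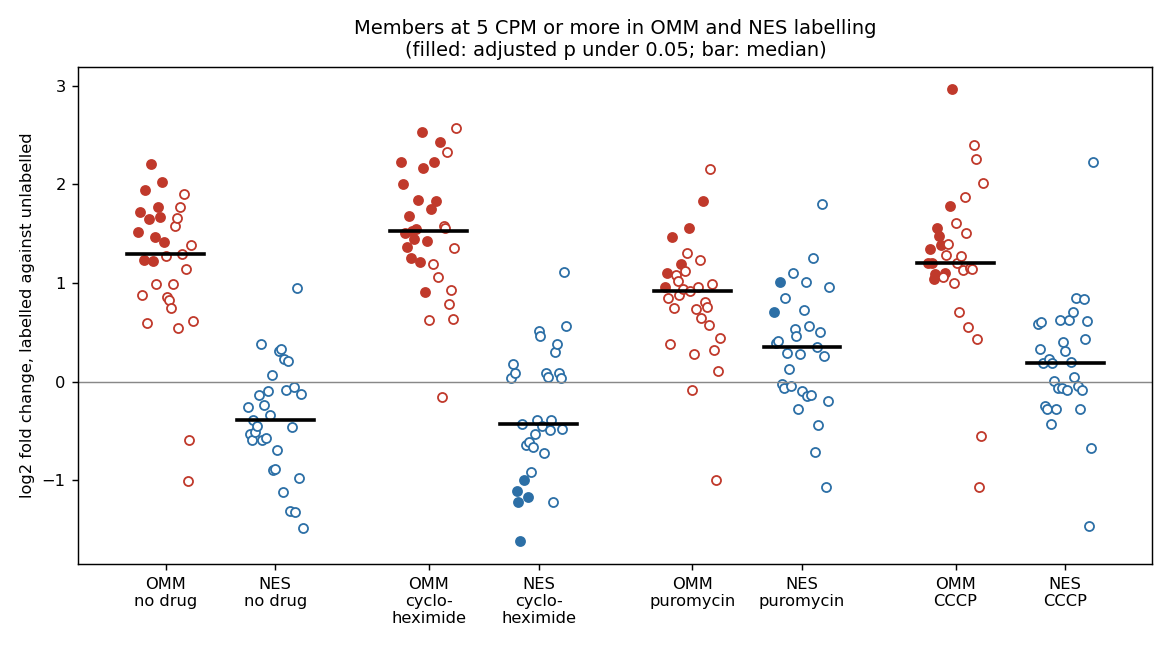
Log2 fold change, labelled against unlabelled, of the 31 members at 5 CPM or more at OMM and at NES, with no drug, cycloheximide, puromycin and CCCP; filled points were called and the bar is the median. The OMM medians are 1.29, 1.52, 0.92 and 1.20 in that order, and the NES medians -0.39, -0.42, 0.36 and 0.19. The libraries with no drug come from another table.

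Under nocodazole the labelled OMM libraries held less of the members at 2 h than at 3 min; OMM 2 h labelled 1 lacks counts for 4.58% of the well-expressed genes. The summed level of the 47 members was 4650 and 5495 CPM at 3 min, 4986 and 5245 CPM at 6 min, 3455 and 3558 CPM at 9 min, 3345 and 3722 CPM at 30 min, and 2834 and 2880 CPM at 2 h. At NES it was 1400 and 1146 CPM at 3 min and 1656 and 1748 CPM at 2 h. The OMM values at 3 and 6 min lay above all later ones, and those at 2 h below all others. The OMM mean was 2857 ± 32.5 CPM (SD, n = 2) at 2 h and 5072 ± 598 CPM (SD, n = 2) at 3 min, and the two-sided exact permutation test gave p = 0.333, the smallest that 2 against 2 libraries allow.

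Gene by gene, COL18A1 was the 1 member of 46 tested whose labelled OMM level fell between 3 min and 2 h (0.306% of all 19611 genes were lower). It was at 465 and 417 CPM at 3 min, 450 and 430 CPM at 6 min, 186 and 222 CPM at 9 min, 188 and 233 CPM at 30 min and 135 and 112 CPM at 2 h, with no overlap between the first and the last time. The log2 change was -1.84 ± 0.36 (adjusted p = 0.0169). Leaving out any 1 of the 4 labelled libraries at these times ended the call, and without the libraries that lack counts, OMM 2 h labelled 1 among them, the change was -2.04 (adjusted p = 0.173). NID1 went from 738 and 925 CPM to 515 and 462 CPM (-0.77 ± 0.22, adjusted p = 0.143), and LAMC1 from 671 and 860 CPM to 515 and 516 CPM (-0.57 ± 0.21, adjusted p = 0.337). Both had non-overlapping levels and neither passed. Of the 46 members, 39 were below 0, with a median of -0.79 beside -0.19 over all genes. Among the folding and export genes 4 of 20 fell, led by FKBP10 (-1.75 ± 0.24, adjusted p = 0.000736) and P4HB (-1.38 ± 0.20, adjusted p = 0.00103). In the labelled NES libraries no member passed (3 had an unadjusted p under 0.05, DESeq2 called 0, and edgeR called 0.0255% of all genes in either direction). FBN2 had the smallest unadjusted p (0.76 ± 0.24, adjusted p = 1), and the members' median was 0.37.

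OMM against NES labelling was also read at each time, against the same OMM and NES controls pooled over 3 and 30 min, so the 5 contrasts are not independent. The members called higher at OMM numbered 11 at 3 min (2.05% of all genes), 9 at 6 min (1.91%), 3 at 9 min (1.18%), 4 at 30 min (1.09%) and 2 at 2 h (0.959%), and none was lower. NID1 was called at all 5 times, with log2 differences of 2.78 ± 0.27, 2.58, 1.98 ± 0.27, 1.82 ± 0.27 and 1.44 ± 0.27 in order of time. LAMC1 was called at 3, 6, 9 and 30 min, with 1.84 ± 0.26, 1.62, 1.25 ± 0.26 and 1.05 ± 0.26. COL4A2 was at 2.83 ± 0.41 at 3 min, 2.04 ± 0.40 at 30 min and 1.78 ± 0.40 at 2 h, and COL18A1 at 2.94 ± 0.44 at 3 min. NID2, called from 3 to 30 min (5.02 ± 0.88 at 3 min), had 0.0539 and 0.201 CPM in the OMM controls of 3 min and 25.6 and 64 CPM in those of 30 min; all 4 of these libraries lack counts. Between the labelled libraries alone NID2 differed by 1.72 at 3 min (adjusted p = 0.386), 2.12 at 6 min (adjusted p = 0.217), 0.78 at 9 min and 0.72 at 30 min (adjusted p = 1 at both) and was called at none of them.

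With the labelled libraries alone, OMM against NES, 9, 8, 2, 3 and 0 members were called in order of time, an alternative added after seeing the data. Fitted on their own libraries the 5 contrasts gave 3, 1, 1, 1 and 0. The counts moved with single libraries. At 3 min the count was 18 without OMM 3 min unlabelled 1 and 5 without NES 3 min labelled 2, and at 6 min it was 16, 14 and 16 without OMM 3 min unlabelled 1, 3 min unlabelled 2 and 30 min unlabelled 1. At 9 min it was 10, 10, 11 and 5 without the OMM controls in turn (3 min 1 and 2, 30 min 1 and 2), 5 without NES 3 min unlabelled 2 or 30 min unlabelled 1, and 1 without NES 9 min labelled 1 or 2. At 30 min it was 13, 9 and 12 without OMM 3 min unlabelled 1, 3 min unlabelled 2 and 30 min unlabelled 1, 2 without OMM 30 min labelled 1, and 1 without OMM labelled 2 or NES labelled 1 or 2. At 2 h it was 10, 9, 10 and 5 without the OMM controls in the same order, 5 without NES 30 min unlabelled 1, 1 without NES 3 min unlabelled 2, and 0 without OMM labelled 1 or NES labelled 1 or 2 of that time. NID1 kept its call at 3, 6, 9 and 30 min in every alternative run.

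**Figure D4:**
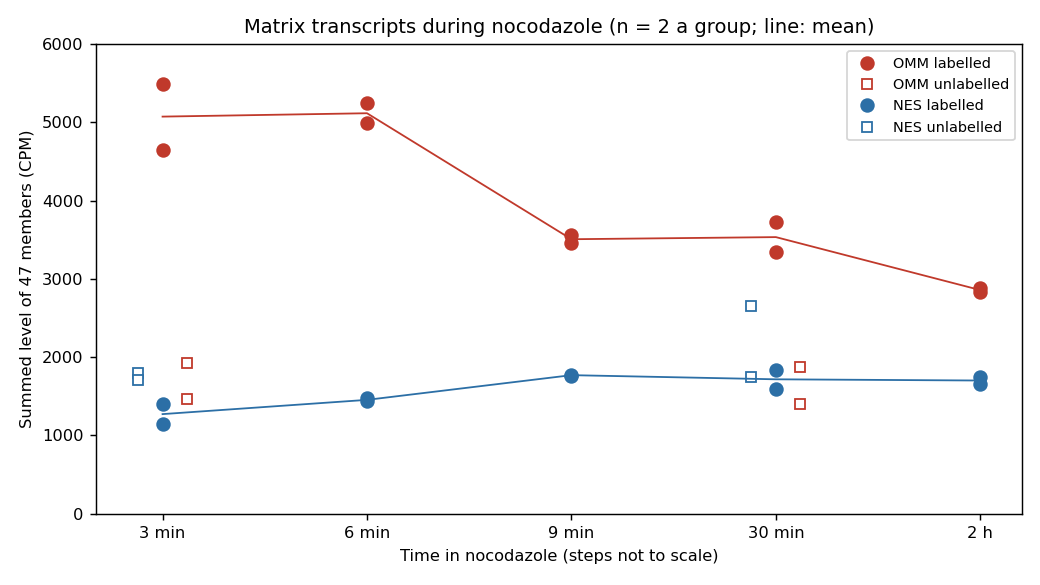
Summed level of the 47 members in CPM in each nocodazole library, by time of treatment, for OMM and NES; filled points are labelled libraries and open squares unlabelled ones at 3 and 30 min. The labelled OMM libraries lie between 4650 and 5495 CPM at 3 and 6 min and at 2834 and 2880 CPM at 2 h, and the labelled NES libraries between 1146 and 1837 CPM.

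In the biochemical fractions, made without peroxide, most members held a higher share of the nuclear than of the cytosolic libraries. Of 47 members 43 were higher in the nuclear than in the cytosolic fraction and none was lower, beside 34.2% of the 19115 genes tested called higher. LAMB2 stood at 133 and 154 CPM in the nuclear and at 9.52 and 10.3 CPM in the cytosolic fraction. FBN2 stood at 159 and 169 CPM against 25.1 and 22.6 CPM, and NID1 at 219 and 207 CPM against 49 and 38 CPM. None of these groups overlapped. The log2 differences were 3.86 ± 0.20 (adjusted p = 8.48e-08), 2.78 ± 0.18 (adjusted p = 5.6e-07) and 2.29 ± 0.19 (adjusted p = 2.65e-06). COL7A1, the anchoring fibril collagen, was at 15.1 and 27.8 CPM against 0.73 and 0.739 CPM (4.86 ± 0.40, adjusted p = 2.64e-06). LAMC1 was at 265 and 358 CPM against 104 and 62.7 CPM (1.9 ± 0.24, adjusted p = 3.07e-05).

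The summed level of the members was 1602 and 1861 CPM in the nuclear and 345.4 and 334.8 CPM in the cytosolic libraries. The median over members was 2.40, beside 0.11 over all genes. Calls were made for 21 of 22 basement membrane genes, 7 of 8 fibril-forming, 4 of 5 fibril-associated, 3 of 3 membrane-spanning and 4 of 5 other collagens, and 4 of 4 other matrix genes. Those that did not pass include COL6A5 (0.75 ± 0.39), COL19A1 (-0.80 ± 0.65) and COL1A1 (0.04 ± 0.33, adjusted p = 0.915). COL1A1, a chain of type I collagen, was at 5.7 and 7.33 CPM against 5.24 and 7.39 CPM, with overlapping ranges. Of the folding and export genes 16 of 20 were higher in the nuclear fraction and none lower, and of the COPII genes 2 were higher and 9 lower. Over all 19115 genes 5323 were lower. Matrix receptors (18 of 22 tested) and matrix processing genes (14 of 17 tested) were also higher. Whether ER came down with the nuclei was not tested; the NLS construct gave 3 calls among the same 47 members, with a median of 0.41 beside 0.29 over all genes. These libraries measure shares of RNA. The amount of RNA in each fraction was not available here, so a higher nuclear share does not say where most copies lay.

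**Figure D5:**
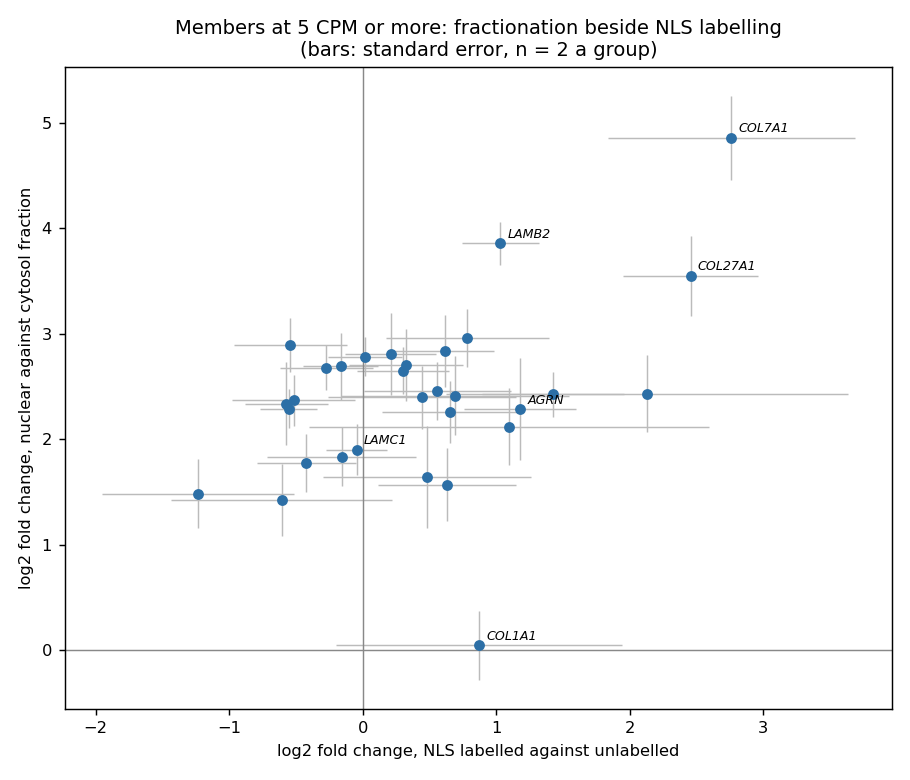
Log2 fold change with peroxide at NLS (x axis) against the log2 difference between the nuclear and the cytosolic fraction (y axis) for the 31 members at 5 CPM or more, with SE bars. On the x axis 20 of 31 lie to the right of 0, and on the y axis all 31 lie above 0. LAMB2 stands at 1.03 (x) and 3.86 (y), and COL27A1 at 2.46 (x) and 3.55 (y).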

How the data were processed

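Whole-number counts per gene were deposited by the authors in 5 tables (9 constructs, drugs, nocodazole, MITO, fractions) on GRCh38. The submitters' processing notes name Trimmomatic, STAR, HTSeq and DESeq2; their versions and the strand setting were not given in the sources used here. A table of log2 fold changes and p-values deposited by the authors is quoted once. The members and gene lists were chosen with earlier results of these data known. Of 97 libraries in 49 groups, 1 technical repeat was left out. Each table was fitted as 1 model of group means with edgeR 4.0.16 (TMM, filterByExpr, quasi-likelihood F test, R 4.3.3), with Benjamini-Hochberg adjustment over all genes tested and calls at 0.05, giving 33 comparisons; the SE is the absolute log2 fold change divided by the square root of F. Levels per library are CPM on totals scaled by the TMM factors, and the level that chose members used unscaled totals. The fitting steps were also run on simulated counts, which took their dispersion from the fitted data and held no libraries that lack counts. Both the 2 libraries per group and the depth limit precision. Named genes are the 10 members of highest unlabelled mean and up to 6 called members of smallest p per direction and comparison; for other lists up to 4. Genes named outside this rule (such as COL1A1 and COL6A5) were chosen after their values were seen. Alternatives were DESeq2 1.42.0, RLE scaling, no filter, only a comparison's own libraries, the replicate block, other controls, leaving out libraries in turn, and leaving out those lacking counts. Libraries lacking counts were kept where both of their group did. Both labelled NIK libraries, both OMM controls with cycloheximide and all OMM controls with nocodazole therefore stayed in. Sequence features were computed from codons of GENCODE 29 coding sequences in place of the planned RefSeq proteins. Same-numbered replicates deviated together little (correlation -0.189 to 0.146), so the numbers were not taken to pair libraries. No 2 libraries were identical.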

Additional observations from a re-analysis of the deposited data

Results flagged for a closer look

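The labelling contrasts of different constructs or drugs were set against each other by interaction contrasts, and the members called in those tests (edgeR, adjusted p under 0.05) are the results for a closer look. In the table of 9 constructs, 5 members differed between ERM and NES, 8 between OMM and NES, and 4 between ERM and KDEL, all higher at the first-named construct. With drugs, 17 members differed between OMM and NES in cycloheximide, 1 (LAMA5) in CCCP, and 2 between cycloheximide and puromycin at OMM. Under nocodazole 11 differed between OMM and NES at 3 min, 9 at 6 min, 3 at 9 min, 4 at 30 min and 2 at 2 h. The change of these counts with time was not itself tested; the labelled OMM libraries at 2 h and 3 min were, and COL18A1 alone passed there.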

How the results depend on the processing

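With 2 libraries per group most counts of called members moved with the processing. Among the named members' values 1 called value changed sign, LAMB2 at NLS with the controls of all 9 constructs (-0.089). Values that were not called changed sign in 116 of 2200 cases when 1 library was left out, in 15 of 97 with the controls of all 9 constructs, in 10 of 178 without the libraries that lack counts, and in 1 to 4 under each of DESeq2, RLE scaling, no filter, own libraries, the block and the labelled libraries alone. With DESeq2 330 of 357 named values kept their direction and side of the threshold and 24 passed it anew, and with RLE scaling 350 of 357 kept both. Leaving out 1 library at a time, with the dispersion trend of all libraries, 1826 of 2200 kept both. LAMC1, FBN2, COL4A2 and NID1 at ERM, and NID1, LAMC1, COL18A1, LAMA5, COL4A2 and AGRN at OMM, were called in every alternative run. The cause of the moves below was not tested, beyond fewer libraries or genes where the alternative removes them.

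DESeq2 called 10 members at ERM, 3 at MITO (polyadenylated), 5 at NLS, 9 at NIK, 7 at LMA, 14 for OMM against NES, 4 for ERM against OMM, 10 at OMM in puromycin, 20 at OMM in CCCP, 6 and 2 at NES in puromycin and CCCP, 3 and 4 for OMM against NES in these drugs, 7 for the contrast of cycloheximide with puromycin, 19, 19, 11, 11 and 9 over the nocodazole times, 5 for OMM at 2 h against 3 min and 2 at MITO (total). RLE scaling called 1 at MITO (polyadenylated) and 2 at NIK. The controls of all 9 constructs gave 10 at ERM, 25 at OMM, 5 at MITO, 7 at NLS, 7 at NIK and 4 at NucPore.

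Without the filter on low counts there were 3 at MITO (polyadenylated), 3 at NIK, 13 for OMM against NES, 2 for ERM against OMM, 10 at OMM in puromycin, 20 in CCCP, 4 and 2 at NES in puromycin and CCCP, 2 and 4 for OMM against NES in these drugs, 4 for cycloheximide against puromycin, 14 and 4 at 6 min and 2 h of nocodazole, 2 for OMM at 2 h against 3 min, 2 at MITO (total) and 1 for total against polyadenylated RNA. With only the libraries of each comparison there were 7 at ERM, 2 at KDEL, 19 at OMM, 5 at MITO, 7 at NLS, 0 at NIK, 1 at LMA, 3 for ERM against NES, 2 for ERM against OMM, 2, 20 and 0 at OMM in cycloheximide, OMM in puromycin and NES in cycloheximide, 1 at NES in puromycin, 6, 1 and 0 for OMM against NES in cycloheximide, puromycin and CCCP, 4 for cycloheximide against puromycin, 3, 1, 1, 1 and 0 over the nocodazole times, and 0 for OMM at 2 h against 3 min.

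The replicate block gave 1 member at MITO (polyadenylated), where the numbers looked crossed (correlation -0.174) and the crossed pairing, added after seeing the data, also gave 1. The block gave 3 at NIK, 2 for ERM against OMM, 2 for OMM against NES in CCCP, 1 for cycloheximide against puromycin, 6, 1, 1 and 1 at 3, 9 and 30 min and 2 h of nocodazole, and 0 at MITO (total). A level of 5 CPM would leave 31 members. In the next alternative, libraries that lack counts stayed in where both of their group did. Without the libraries that lack counts there were 3 for ERM against NES, 1 for ERM against OMM, 0 at NES in puromycin, 5 and 0 at 9 min and 2 h of nocodazole, 0 for OMM at 2 h against 3 min and 0 at MITO (total). The labelled libraries alone gave 0 at 2 h of nocodazole.

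Leaving out 1 library at a time gave 4 to 5 members at ERM, 6 to 13 at OMM, 0 to 2 at NES, 0 to 3 at MITO (polyadenylated), 0 to 2 at NLS, 1 to 6 at NIK, 0 to 2 at LMA, 3 to 5 for ERM against NES, 2 to 10 for OMM against NES, 0 to 1 for ERM against OMM, 1 to 3 for ERM against KDEL, 15 to 27, 0 to 1 and 6 to 10 at OMM in cycloheximide, puromycin and CCCP, 2 to 9, 0 to 2 and 0 to 1 at NES in these drugs, 12 to 22, 0 and 0 to 2 for OMM against NES in them, 1 to 10 for cycloheximide against puromycin, 5 to 18, 6 to 16, 1 to 11, 1 to 13 and 0 to 10 over the nocodazole times, 0 for OMM at 2 h against 3 min, 0 to 4 at MITO (total) and 41 to 46 for the fractions.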
